A study of Mus musculus with 217 samples.

Results

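The genes described here are 10 of the 52550 genes in the count tables: the CC chemokine ligands Ccl2, Ccl3, Ccl4, Ccl5, Ccl7, Ccl11, Ccl12 and Ccl19, the CX3C ligand Cx3cl1, and Ackr1, the atypical receptor that binds inflammatory chemokines. They were chosen by name as the CC ligands, the membrane-tethered ligand and the scavenging receptor of interest in brain, lung and heart endothelium after lipopolysaccharide (LPS, a bacterial endotoxin). Of the 10, 9 passed the filter on low counts in all 3 tissues. Ccl19 did not, with 1 read in all libraries together.

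Chemokines are small secreted proteins that form gradients on cell surfaces and direct leukocytes through G protein-coupled receptors. CC chemokines carry adjacent cysteines near the start of the mature protein, and the CX3C ligand has other residues between them. Endothelial cells make chemokines during inflammation and present them on the vessel wall to rolling leukocytes. Ackr1 does not signal through G proteins, and venular endothelium uses it to bind and carry chemokines across the cell.

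All mice were RiboTagEC mice (Cdh5CreERT2/+; Rpl22HA/+) on a C57BL/6J background. In these mice the endothelial Cdh5 promoter drives a tamoxifen-inducible Cre, which turns on an HA tag on the ribosomal protein Rpl22, and pulling down the tag enriches the mRNA on endothelial ribosomes from whole tissue. Tamoxifen (5 mg by gavage, 4 times) was given at 4 to 6 weeks of age to all of them, controls included. Treated mice received LPS at 10 mg/kg intraperitoneally and were sampled 6, 24, 48, 72 or 168 hr later, while the control mice, called 0 hr here, received PBS. In the order 0, 6, 24, 48, 72 and 168 hr, the libraries kept number 5, 5, 4, 6, 4 and 4 in brain, the same in heart, and 4, 4, 2, 6, 4 and 4 in lung, 80 of 98 in all. Nothing in the labels says that the replicates came from separate animals, so the p-values measure the spread between these libraries. A pull-down from whole tissue gives shares of the captured mRNA, so more endothelial cells of a kind and more mRNA per cell cannot be told apart.

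The 18 libraries left out carried 1.73% to 2.75% of reads on genes. Reads counted on genes ranged from 7226800 to 32891800 in brain, from 8136030 to 33050800 in heart and from 284457 to 43417900 in lung. A count of 0 therefore allows a level of up to 0.0912 to 0.415 CPM (counts scaled to a library total of 1000000) in brain, 0.0908 to 0.369 in heart and 0.0691 to 10.5 in lung (3 counts in 1 library, counting error only). In 4 libraries LPS-response genes lay below the rest of their group, against their labels: brain 6 hr replicate 6, heart 6 hr replicate 5, heart 72 hr replicate 1 and lung 6 hr replicate 4. Of 6 such genes (Lcn2, Saa3, Selp, Icam1, Cxcl1 and Socs3), all 6 lay below every other library of the group in the brain and heart ones and 5 in the lung one, where Cxcl1 did not. The lung one held only 284457 counts on genes, 3.4% of its reads. Its endothelial markers summed to 394 CPM, with 3 of 12 at 0. The part of low depth and capture in its low values was not tested. Lcn2, an acute-phase gene, was still above its 0 hr range in the 6 hr ones of brain (368 CPM, beside 7.05 to 45.1) and heart (55.7 CPM, beside 8.99 to 21.6). Saa3, another acute-phase gene, was at 1.38, 1.14, 0.811 and 14.1 CPM there, while the other libraries of those groups held 1535 to 1625, 622 to 953, 72.5 to 142 and 1190 to 15790 CPM. These 4 are called set-apart libraries below, they remain in the tests as labelled, and results without them are given beside. They were picked after seeing these data, for their low LPS-response genes. Smaller adjusted p-values without them are therefore no independent support for a call. The brain, heart and lung ones at 6 hr share a file name that gives the time but no animal number. They may come from the same mouse, and so may not be independent exceptions. Heart 72 hr replicate 1 shares its mouse name with brain 72 hr replicate 1, where Lcn2 was at 1146 CPM. The 12 endothelial markers were detected in every brain and heart library, and their sum at 0 hr was 3133 to 6338 CPM in brain, 13193 to 14390 in heart and 13324 to 16428 in lung. Neuron and glia markers summed to 2149 to 10534 CPM in brain at 0 hr, cardiomyocyte markers to 3739 to 7724 in heart and alveolar epithelial markers to 7536 to 10939 in lung, so mRNA of other cells was present in each tissue.

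The defining stretch of the 9 ligands is shown to let the families be told apart by eye. Each line is the coding strand around the first cysteine codons of the mature chemokine, from the GENCODE M21 annotation of GRCm38 (mm10), 5′ to 3′, with those cysteine codons in capitals.
Ccl2: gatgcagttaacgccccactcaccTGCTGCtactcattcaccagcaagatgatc
Ccl7: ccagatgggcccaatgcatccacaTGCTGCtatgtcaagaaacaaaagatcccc
Ccl12: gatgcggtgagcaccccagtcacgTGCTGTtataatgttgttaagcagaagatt
Ccl11: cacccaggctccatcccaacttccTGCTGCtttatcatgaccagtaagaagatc
Ccl3: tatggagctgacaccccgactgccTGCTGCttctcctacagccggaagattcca
Ccl4: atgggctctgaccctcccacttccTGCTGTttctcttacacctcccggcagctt
Ccl5: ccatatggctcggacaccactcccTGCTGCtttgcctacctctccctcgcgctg
Ccl19: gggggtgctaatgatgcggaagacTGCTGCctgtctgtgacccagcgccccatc
Cx3cl1: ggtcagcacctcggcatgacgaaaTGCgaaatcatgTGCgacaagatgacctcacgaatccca

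The 8 CC ligands have the cysteine codons side by side, and Cx3cl1 has codons for other residues between them. Over whole coding sequences Ccl3 and Ccl4 shared 67% of aligned positions, Ccl7 and Ccl11 66.3%, Ccl7 and Ccl12 63.5% and Ccl3 and Ccl5 59.6%. On chromosome 11 of GRCm38, Ccl2 (82035571 to 82037453), Ccl7 (82045712 to 82047525), Ccl11 (82057823 to 82062955) and Ccl12 (82101845 to 82103400) lie next to each other on the plus strand. Farther along the same chromosome are Ccl5 (83525778 to 83530518, minus strand), Ccl3 (83647844 to 83649355, minus strand) and Ccl4 (83662584 to 83664683, plus strand). Ccl19 lies on chromosome 4 (42754525 to 42756577, minus strand), Cx3cl1 on chromosome 8 (94772009 to 94782427, plus strand) and Ackr1 on chromosome 1 (173331886 to 173333750, minus strand).

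No stretch of 50 bases in a transcript of Ccl2, Ccl3, Ccl4, Ccl5, Ccl7, Ccl11, Ccl12 or Cx3cl1 occurs in a transcript of another gene, so reads of that length from the cluster members are not interchangeable. Ackr1 shares 20.4% of its 50-base stretches with Cadm3, whose exons overlap it on the same strand. Of the 50-base stretches of Ccl19, 52% occur in Gm2564, 30.1% in Ccl19-ps3, 21.8% in Gm12407 and 13.8% in Ccl19-ps1, so reads from Ccl19 could be set aside as matching several places. Across the kept libraries Gm12407 held 362 reads and Ccl19-ps1, Ccl19-ps3 and Gm2564 held 0, and Ccl19, a ligand that guides dendritic cells and T cells to lymph nodes, has no value here beyond its single read.

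The response was read by comparing each time with 0 hr in its own tissue, on the log2 scale with the standard error (SE), by edgeR's quasi-likelihood test with Benjamini-Hochberg adjustment over all genes tested and a threshold of 0.05. In brain 8 of the 9 tested members were higher at 6 hr, where 4.21% of all genes tested were called higher. The count was 8 at 24 hr (6.52% of all genes), 5 at 48 hr (8.11%), 3 at 72 hr (2.98%) and 0 at 168 hr (0%), where no member had an unadjusted p under 0.05 and DESeq2 and limma-voom called none. All 9 were higher in heart at 6 hr (22.4% of all genes). At 24 hr the count was 5 (9.07%), beside 6 at 48 hr (3.08%). The heart count was 3 by 72 hr (0.275%). It was 0 by 168 hr (0%), when no member had an unadjusted p under 0.05 and the other tools called none. By the pattern of their file names the libraries fall into series. In each tissue 0 and 168 hr share only series 1, with 2 libraries at each time. The other 0 hr libraries are of series 2 and the other 168 hr ones of series 4. A return to 0 hr levels is therefore weakly tested.

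Lung gave 5 members higher at 6 hr (2.56% of all genes), 1 each at 24 hr (0.363%), 48 hr (0.428%) and 72 hr (0.17%), and 0 at 168 hr (0%), where 2 members, Ccl2 and Ccl7, had an unadjusted p under 0.05 in the lower direction and DESeq2 and limma-voom called none. Without the 4 set-apart libraries the counts at 6 hr stayed at 8 in brain (7.63% of all genes), 9 in heart (27.8%) and 5 in lung (2.38%), and heart at 72 hr went from 3 to 4 (2.27%). The median log2 difference over the 9 members at 6 hr in brain was 5.46, beside 0.0039 over all genes tested. In lung at 6 hr the median gene moved by -0.42 with the scaling used, and the lung differences are to be read against that shift. Within the libraries of series 1 alone (libraries are grouped by the pattern of their file names) no member was called at 6 hr in any tissue, and the only 6 hr library of that series in each tissue is a set-apart library.

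**Figure D1:**
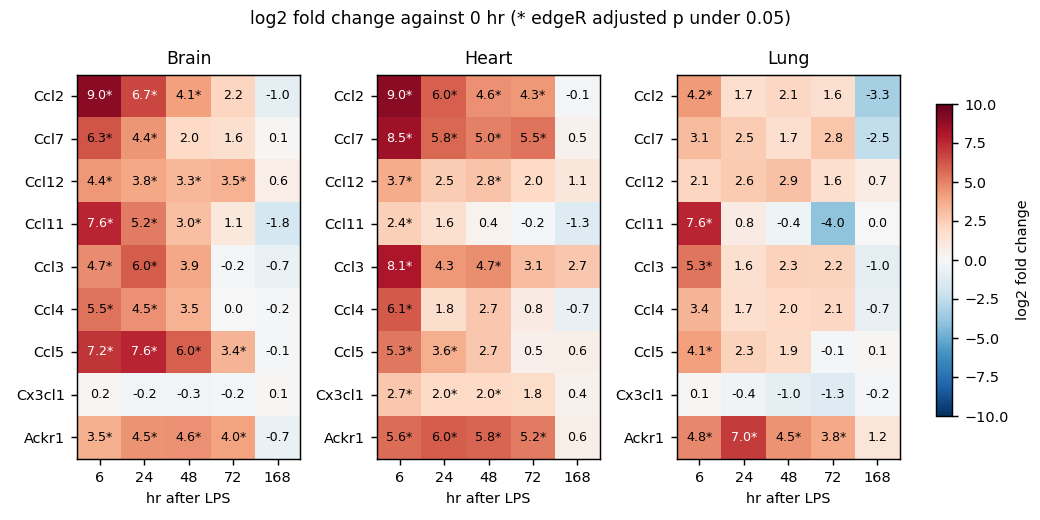
The log2 difference from 0 hr of the 9 tested members (rows) at each time after LPS (columns) in brain, heart and lung, with a star where the edgeR adjusted p was under 0.05. Starred members in brain number 8, 8, 5, 3 and 0 from 6 to 168 hr, in heart 9, 5, 6, 3 and 0, and in lung 5, 1, 1, 1 and 0.

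Ccl2, which recruits monocytes through Ccr2, showed the largest difference of the 9 members at 6 hr in both brain and heart. In brain it was at 2.17, 2.65, 0.773, 0.669 and 0.898 CPM at 0 hr, and at 646, 951, 463 and 51.3 CPM at 6 hr with 1.47 CPM in the set-apart library. The heart libraries held 8.58, 9.87, 6.46, 7.12 and 5.97 CPM at 0 hr, and 3284, 4231, 2941 and 3374 CPM at 6 hr with 5.18 CPM in the set-apart library. Apart from the set-apart libraries, every library at 6 hr lay above the 0 hr range in both tissues.

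The log2 difference of Ccl2 at 6 hr was 9.03 (SE 1.17, adjusted p = 0.000115) in brain and 9.04 (SE 1.12, adjusted p = 1.1e-05) in heart, and without the set-apart libraries 9.58 (SE 0.75) and 9.45 (SE 0.46). Within library series 2 alone it was 9.52 in brain and 9.50 in heart. In lung Ccl2 was at 23.5, 2.66, 0.668 and 1.31 CPM at 0 hr and at 98.2, 29.5, 11 and 7.03 CPM at 6 hr, and the groups overlapped. The lung difference was 4.22 (SE 0.92, adjusted p = 0.008), and it missed the threshold without lung 0 hr replicate 3 (largest adjusted p over the left-out libraries 0.0544) and within series 2 (4.90, adjusted p = 0.31).

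Brain Ccl2 was at 285, 133, 159 and 264 CPM at 24 hr, and ranged from 3.96 to 111 CPM with a median of 49.7 at 48 hr. The 72 hr libraries held 2.63, 4.73, 7.33 and 29.1 CPM, and those at 168 hr 1.75, 0.685, 2.19 and 1.79 CPM, inside the 0 hr range. At 48 hr the 2 libraries of series 2, with 7.44 and 3.96 CPM, lay below the other 4, which held 47.5 to 111 CPM. The log2 difference from 0 hr was 6.71 (SE 1.06, adjusted p = 0.000424) at 24 hr, 4.11 (SE 0.99, adjusted p = 0.00846) at 48 hr and 2.18 (SE 0.99, adjusted p = 0.273) at 72 hr. Within series 2 the 48 hr difference was 2.71 (adjusted p = 0.201) and within series 1 4.45 (adjusted p = 0.0287).

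Heart libraries held 449, 406, 441 and 345 CPM of Ccl2 at 24 hr, and 52.7 to 417 CPM with a median of 147 at 48 hr. At 72 hr the values were 163, 156 and 278 CPM with 14.2 CPM in the set-apart library, and at 168 hr 6.64, 8.78, 6.45 and 9.11 CPM. Every library at 24, 48 and 72 hr lay above the 0 hr range, and the 168 hr libraries lay within it.

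Heart Ccl2 differed from 0 hr by 5.95 (SE 0.99, adjusted p = 0.00108) at 24 hr, 4.57 (SE 0.89, adjusted p = 0.00385) at 48 hr and 4.31 (SE 0.93, adjusted p = 0.0405) at 72 hr. The 72 hr call was lost when any of 24 of the 28 heart libraries was left out (adjusted p up to 0.232). Without the 4 set-apart libraries, picked for low LPS-response genes, it was 4.75 (SE 0.39, adjusted p = 3.83e-08). Lung Ccl2 held 25.7 and 12.9 CPM at 24 hr, 4.80 to 96 CPM (median 11.7) at 48 hr and 7.00, 5.14, 13.4 and 17.3 CPM at 72 hr, with no call at these times. At 168 hr the lung values were 2.30, 0.855, 0.228 and 0.454 CPM.

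Ccl7, a ligand of Ccr1, Ccr2 and Ccr3 that is encoded next to Ccl2, moved in the same direction in brain and heart at lower levels. Its brain values were 2.63, 3.15, 0.945, 0.826 and 0.583 CPM at 0 hr and 126, 155, 76.2 and 14.1 CPM at 6 hr, with 3.64 CPM in the set-apart library. In heart it went from 0.919, 0.977, 0.552, 0.712 and 0.686 CPM to 221, 164, 305 and 229 CPM, with 0.989 CPM in the set-apart library. The 6 hr libraries lay above all 0 hr libraries in both tissues, the set-apart ones by little.

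The differences at 6 hr were 6.31 (SE 0.82, adjusted p = 0.000115) in brain and 8.46 (SE 1.23, adjusted p = 3.19e-05) in heart. Within series 2 they were 6.99 and 8.91. Lung Ccl7 was at 10.9, 2.57, 0.622 and 0.573 CPM at 0 hr and at 73.2, 8.38, 26.2 and 0 CPM at 6 hr, and the difference of 3.13 (95% interval 1.09 to 5.16) had an adjusted p of 0.072. The library at 0 is the set-apart one, whose depth allows up to 10.5 CPM there.

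At 24 hr Ccl7 was at 52.1, 23.3, 30.8 and 53.2 CPM in brain and 39.9, 39.2, 10.1 and 17.3 CPM in heart. The differences were 4.42 (adjusted p = 0.000923) and 5.75 (adjusted p = 0.00297). At 48 hr brain Ccl7 ranged from 3.16 to 16.3 CPM (median 5.25), the lowest at the top of the 0 hr range (3.15 CPM), and its difference of 1.98 missed the threshold (adjusted p = 0.058), with 1.93 and an adjusted p of 0.00774 without the set-apart libraries. Heart Ccl7 ranged from 2.74 to 63.9 CPM (median 16.3) at 48 hr and was 5.04 above 0 hr (adjusted p = 0.0069).

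The 72 hr heart libraries held 16.1, 29.1 and 39.8 CPM of Ccl7 with 0.973 CPM in the set-apart library. That difference was 5.45 (adjusted p = 0.0404), lost when any of 22 of the 28 heart libraries was left out, and 6.01 (adjusted p = 6.97e-06) without the 4 set-apart libraries. Brain Ccl7 at 72 hr was at 2.02, 3.29, 6.64 and 12 CPM, with no call. Lung Ccl7 lay between 2.57 and 23.7 CPM from 24 to 72 hr with no call, and between 0.190 and 2.09 CPM at 168 hr.

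Ccl12, a mouse ligand of Ccr2, was measured at lower levels than Ccl2 and Ccl7. Brain held 0, 0.203, 0.472, 0.197 and 0.943 CPM at 0 hr, and 19.5, 8.67, 17.4 and 1.64 CPM at 6 hr with 0.393 CPM in the set-apart library. Heart held 0.306, 0.391, 0.0394, 0.187 and 0.565 CPM at 0 hr, and 3.28, 2.51, 7.99 and 2.31 CPM at 6 hr with 0.685 CPM in the set-apart library. Groups did not overlap in heart, and in brain they overlapped through the set-apart library.

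At 6 hr Ccl12 was higher by 4.37 (SE 0.81, adjusted p = 0.00122) in brain and 3.71 (SE 0.84, adjusted p = 0.00176) in heart. Brain Ccl12 was also called higher at 24 hr (3.84, adjusted p = 0.00713), 48 hr (3.29, adjusted p = 0.00868) and 72 hr (3.49, adjusted p = 0.0158). Its 72 hr libraries held 3.84, 5.27, 1.38 and 1.19 CPM, all above the 0 hr range, while the 48 hr libraries spread from 0.0310 to 7.87 CPM (median 1.48). The 72 hr call was lost without brain 0 hr replicate 3 or replicate 4 (adjusted p up to 0.0585).

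Heart Ccl12 ranged from 0.100 to 4.24 CPM (median 0.986) at 48 hr, across the 0 hr range, and its difference of 2.83 (adjusted p = 0.0457) was lost when any of 18 of the 28 heart libraries was left out. Without the 4 set-apart libraries it was 2.87 (adjusted p = 0.0195). Lung Ccl12 was at 0.545, 0.841, 0 and 0.573 CPM at 0 hr and 5.23, 0, 2.74 and 0 CPM at 6 hr, and the difference of 2.11 was not called (95% interval -0.83 to 5.06).

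Ccl11 (eotaxin), an eosinophil attractant that acts through Ccr3, rose more in brain than in heart at 6 hr in the edgeR fit. That difference between tissues was lost in 15 of 20 single omissions and was not called under limma-voom. Brain libraries held 0.228, 0.305, 0.258, 0.354 and 0.180 CPM at 0 hr and 69.5, 73.2, 61.7 and 25.5 CPM at 6 hr, with 0.295 CPM in the set-apart library. In heart the gene was at 0.511, 1.08, 0.394, 0.375 and 0.484 CPM at 0 hr and at 1.17, 3.84, 2.91 and 2.4 CPM at 6 hr, with 0.0761 CPM in the set-apart library. The groups were parted in both tissues but for that library, and the brain levels at 6 hr were far above those in heart. The 10 markers of fibroblasts and mural (vessel wall) cells summed to 1448 to 3480 CPM in brain at 0 hr and 428 to 856 CPM in heart. At 6 hr the sums were 746 to 4059 CPM in brain and 336 to 681 CPM in heart. The part of these cells in the levels of Ccl11 was not tested.

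The difference at 6 hr was 7.58 (SE 1.05, adjusted p = 0.00012) in brain and 2.39 (SE 0.66, adjusted p = 0.00661) in heart, and within series 2 it was 7.85 and 3.06. Brain Ccl11 then held 9.58, 6.49, 37.3 and 43 CPM at 24 hr, 0.693 to 15.9 CPM (median 2.68) at 48 hr and 0.405, 0.864, 1.66 and 0.702 CPM at 72 hr. The 24 hr difference was 5.22 (adjusted p = 0.00271). The 48 hr difference was 3.04 (adjusted p = 0.046), was lost when any of 14 of the 28 brain libraries was left out, was 2.80 (adjusted p = 0.00752) without the 4 set-apart libraries, and was 1.75 (adjusted p = 0.218) within series 2.

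In lung Ccl11 was close to the detection limit apart from 1 library. The 0 hr libraries held 0.818, 0, 0.0230 and 0 CPM, from 4 reads in all, and the 6 hr libraries 35.8, 0, 0.150 and 0 CPM. The value of 35.8 CPM belongs to lung 6 hr replicate 1, the library with the highest alveolar epithelial and macrophage marker sums at that time (18335 and 2677 CPM). The lung difference of 7.64 (SE 2.24, adjusted p = 0.0443) was 2.04 (adjusted p = 0.498) without that library, and the call was lost in 9 of 24 single omissions. Heart Ccl11 was not called at 24 hr or later, and without the set-apart libraries its 24 hr difference was 1.54 (adjusted p = 0.043).

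**Figure D2:**
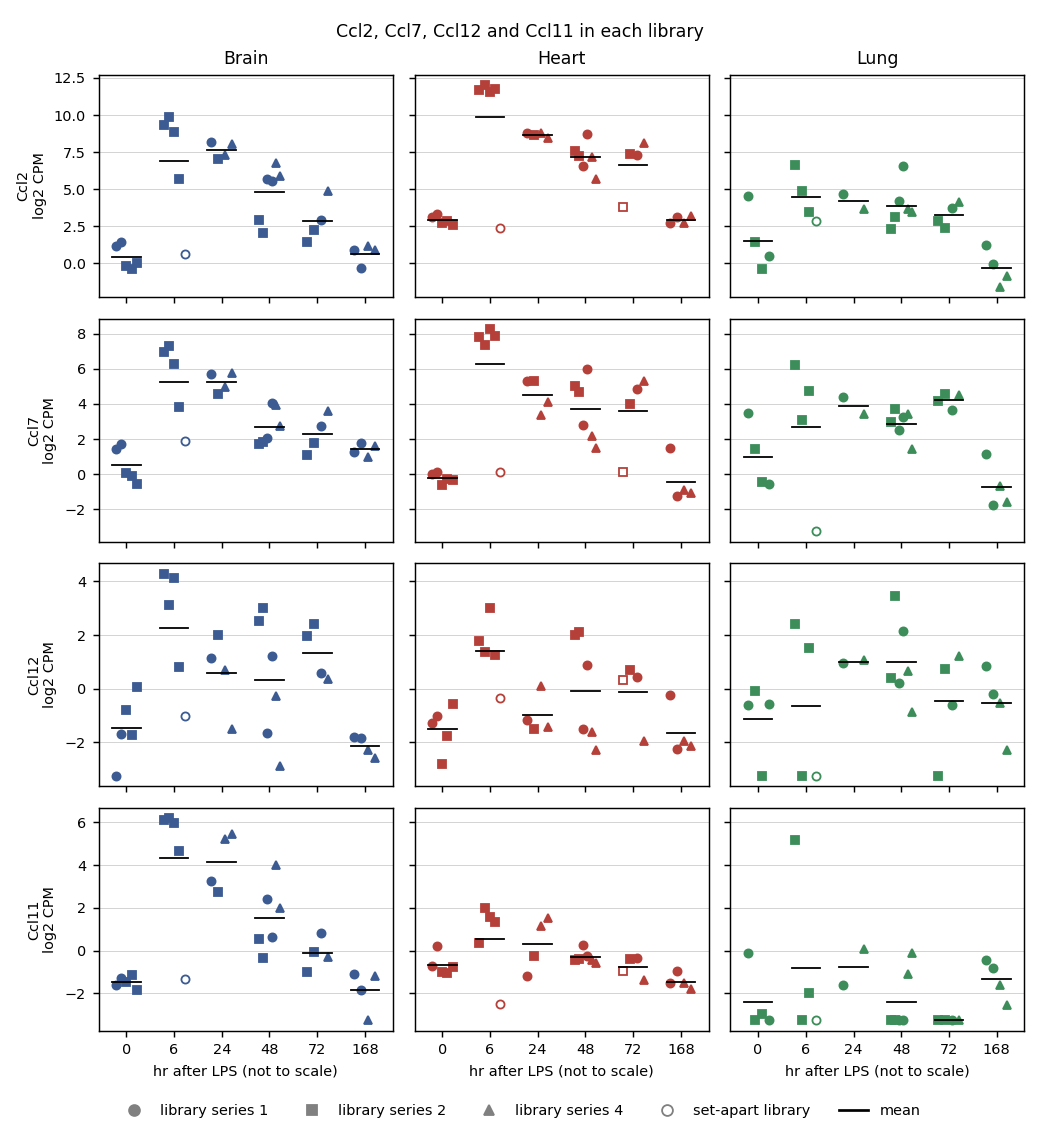
Level of Ccl2, Ccl7, Ccl12 and Ccl11 in each library as log2 CPM (prior count 2) against time after LPS in brain, heart and lung, with marker shape for the library series, hollow markers for the set-apart libraries and a line at the group mean. Heart Ccl2 rises from 5.97 to 9.87 CPM at 0 hr to 2941 to 4231 CPM in 4 of the 5 libraries at 6 hr, and Ccl11 is high at 6 hr in 4 of the 5 brain libraries.

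Ccl3 and Ccl4 (macrophage inflammatory proteins) attract monocytes and T cells, and Ccl3 binds Ccr1. Brain Ccl3 was at 0.228, 0, 0.301, 0.354 and 0.718 CPM at 0 hr and at 5.37, 26.4, 24.7 and 0.664 CPM at 6 hr, with 0.0983 CPM in the set-apart library. Brain Ccl4 was at 0, 0, 0.258, 0.0394 and 0.404 CPM at 0 hr and at 5.83, 18.1, 18.1 and 0.430 CPM at 6 hr, with 0 CPM in the set-apart library. Replicate 4 lay near the top of the 0 hr range for both genes, so 3 of 5 libraries were clearly raised.

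In brain at 6 hr the difference was 4.74 (SE 1.16, adjusted p = 0.0118) for Ccl3 and 5.46 (SE 1.22, adjusted p = 0.00591) for Ccl4, and neither was called by limma-voom (adjusted p = 0.174 and 0.107). The macrophage and monocyte markers summed to 492.6, 608, 612 and 456 CPM in brain 6 hr replicates 1 to 4 and to 87.1 CPM in the set-apart library, beside 68.1 to 236 CPM at 0 hr. Cd14, 1 of these 14 markers, had a median of 3.50 CPM in brain at 0 hr. Over all 28 brain libraries its median was 83.7 CPM and its highest value 430 CPM. The 6 microglia markers summed to 128 to 216 CPM in brain at 6 hr, beside 167 to 256 CPM at 0 hr. Whether the higher macrophage and monocyte sum came from more such cells was not tested. Neutrophil markers summed to 507 CPM in replicate 2 and to 9.92 to 54.7 CPM in the other libraries at 6 hr. The part of these cells in the levels of Ccl3 and Ccl4 was not tested.

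At 24 hr brain Ccl3 was at 4.84, 55.1, 5.84 and 4.05 CPM, all above the 0 hr range, and Ccl4 at 0.991, 7.73, 0.441 and 0.247 CPM. The differences were 6.02 (adjusted p = 0.0027) and 4.53 (adjusted p = 0.0216). Both rested on brain 24 hr replicate 2, the only series 2 library at that time: without it they were 4.44 (adjusted p = 0.0623) and 3.01 (adjusted p = 0.303). The Ccl4 call was also lost without brain 0 hr replicate 4. Brain Ccl3 ranged from 0.447 to 6.82 CPM (median 0.709) at 48 hr and from 0 to 0.566 CPM at 72 hr, and neither gene was called at those times (48 hr adjusted p = 0.0501 and 0.0923).

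Heart Ccl3 was the member closest to absent at baseline, with 1 read in 5 libraries, or 0, 0.0977, 0, 0 and 0 CPM. At 6 hr it was at 5.53, 4.97, 5.78 and 2.53 CPM, with 0 CPM in the set-apart library. The ratio of the pooled counts (414 reads against 1, scaled for depth) was 394, with a 95% counting interval of 70.3 to 15600. The fitted log2 difference of 8.07 (adjusted p = 5.42e-05) depends on the prior count at so low a baseline.

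Heart Ccl4 went from 0.102, 0.0977, 0, 0.0375 and 0.121 CPM at 0 hr to 9.39, 3.51, 5.43 and 2.13 CPM at 6 hr, with 0.0761 CPM in the set-apart library. The difference was 6.10 (SE 0.96, adjusted p = 6.59e-05) and 6.96 within series 2. Between 0 and 6 hr the 10 neutrophil markers moved with both genes, and later they did not. Their sum in heart was 1.02 to 1.86 CPM at 0 hr. At 6 hr it was 33.6 to 59.2 CPM in those 4 libraries and 1.14 CPM in the set-apart one. The sum was still 7.97 to 33.7 CPM at 24 hr and 12.4 to 54.9 CPM at 48 hr. By 48 hr the highest values of Ccl3 and Ccl4 were 0.727 and 0.636 CPM. Macrophage and monocyte markers summed to 58.6 to 104 CPM at 0 hr, to 91.5 to 151 CPM in the 4 libraries and to 60.8 CPM in the set-apart one, and the part of these cells was not tested. By 24 hr heart Ccl3 was at 0.114, 0.289, 0.147 and 0.133 CPM and Ccl4 at 0, 0.165, 0.196 and 0.0663 CPM, and neither was called (adjusted p = 0.0561 and 0.304). The Ccl3 call at 48 hr (adjusted p = 0.05 after rounding) was lost when any of 24 of the 28 libraries was left out. There the pooled ratio was 27.2 (37 reads against 1, 95% counting interval 4.58 to 1100).

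Lung Ccl3 and Ccl4 split the 6 hr libraries. Ccl3 was at 2.18, 0.607, 0.0921 and 0.0818 CPM at 0 hr and at 37.7, 0, 27.9 and 0 CPM at 6 hr. Ccl4 was at 0.545, 0.280, 2.19 and 0 CPM at 0 hr and at 17.2, 0, 12.2 and 0 CPM at 6 hr. Replicates 1 and 3 carried both genes, and replicates 2 and 4 had no read of either. Replicate 4 is the set-apart library. Its depth allows up to 10.5 CPM at a count of 0, near the 12.2 CPM of Ccl4 in replicate 3.

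The same 2 libraries with Ccl3 and Ccl4 held 2585 and 2772 CPM of neutrophil markers and 2677 and 474 CPM of macrophage markers. Replicates 2 and 4 held 476 and 3.52 CPM of neutrophil markers and 115 and 3.52 CPM of macrophage markers. Of the 14 macrophage markers, 9 had no read in replicate 2 and 13 had none in replicate 4, which held 284457 counts on genes. The part of those cells was not tested. The lung difference at 6 hr was 5.33 (SE 1.39, adjusted p = 0.024) for Ccl3, which became 4.75 (adjusted p = 0.0524) without replicate 1 and was also lost without lung 0 hr replicate 2 or 3 (adjusted p up to 0.11). For Ccl4 it was 3.42 (95% interval 1.07 to 5.76, adjusted p = 0.088), and limma-voom gave an adjusted p of 0.0488. From 24 to 72 hr lung Ccl3 lay between 0.100 and 6.41 CPM and Ccl4 between 0.5 and 5.51 CPM, with no call.

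Ccl5 (RANTES), which attracts T cells, monocytes and eosinophils through receptors that include Ccr3 and Ccr1, had its highest brain values at 24 hr. Brain Ccl5 was at 0.343, 0.305, 1.16, 0.669 and 0.539 CPM at 0 hr and at 181, 98.8, 179 and 35.4 CPM at 6 hr, with 0.590 CPM in the set-apart library. At 24 hr it was at 65.6, 70.6, 322 and 402 CPM, and at 48 hr it ranged from 14.9 to 122 CPM with a median of 39. The 24 hr pair of 322 and 402 CPM and the 48 hr pair of 117 and 122 CPM are the series 4 libraries, a series with no library at 0 or 6 hr.

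The brain difference was 7.16 (SE 1.03, adjusted p = 0.000176) at 6 hr, 7.62 (SE 1.07, adjusted p = 0.000141) at 24 hr and 6.01 (SE 1.00, adjusted p = 0.000562) at 48 hr. Within series 2 these were 7.43, 6.60 and 4.40. At 72 hr the libraries held 8.13, 14.5, 1.66 and 12.5 CPM, all above the 0 hr range. That difference was 3.37 (adjusted p = 0.0482), lost when any of 15 of the 28 brain libraries was left out, and 3.37 (adjusted p = 0.00438) without the 4 set-apart libraries. At 168 hr brain Ccl5 was at 1.84, 0.514, 0.563 and 0.578 CPM.

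Heart Ccl5 was at 1.33, 0.977, 0.749, 2.17 and 1.94 CPM at 0 hr and at 26.7, 25.6, 91.1 and 82.6 CPM at 6 hr, with 0.533 CPM in the set-apart library. The 24 hr libraries held 12.2, 15.8, 26.3 and 18.2 CPM and those at 48 hr 2.09 to 18.2 CPM (median 8.53). The difference was 5.27 (SE 0.87, adjusted p = 0.000106) at 6 hr and 3.64 (SE 0.85, adjusted p = 0.00835) at 24 hr. At 48 hr it was 2.72 with an adjusted p of 0.0576, and 2.4 with an adjusted p of 0.00727 without the set-apart libraries.

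In lung Ccl5 was present before LPS, at 2.45, 1.78, 4.21 and 7.77 CPM, and stood at 89.2, 44.4 and 55.4 CPM at 6 hr with 3.52 CPM in the set-apart library. Its difference was 4.13 (SE 0.79, adjusted p = 0.00359), and 4.60 (adjusted p = 0.214) within series 2. Unlike Ccl3 and Ccl4, Ccl5 was raised in lung 6 hr replicate 2 as well. From 24 hr on lung Ccl5 was not called, with 12.9 and 35.9 CPM at 24 hr and 2.60 to 42.6 CPM (median 15.3) at 48 hr.

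**Figure D3:**
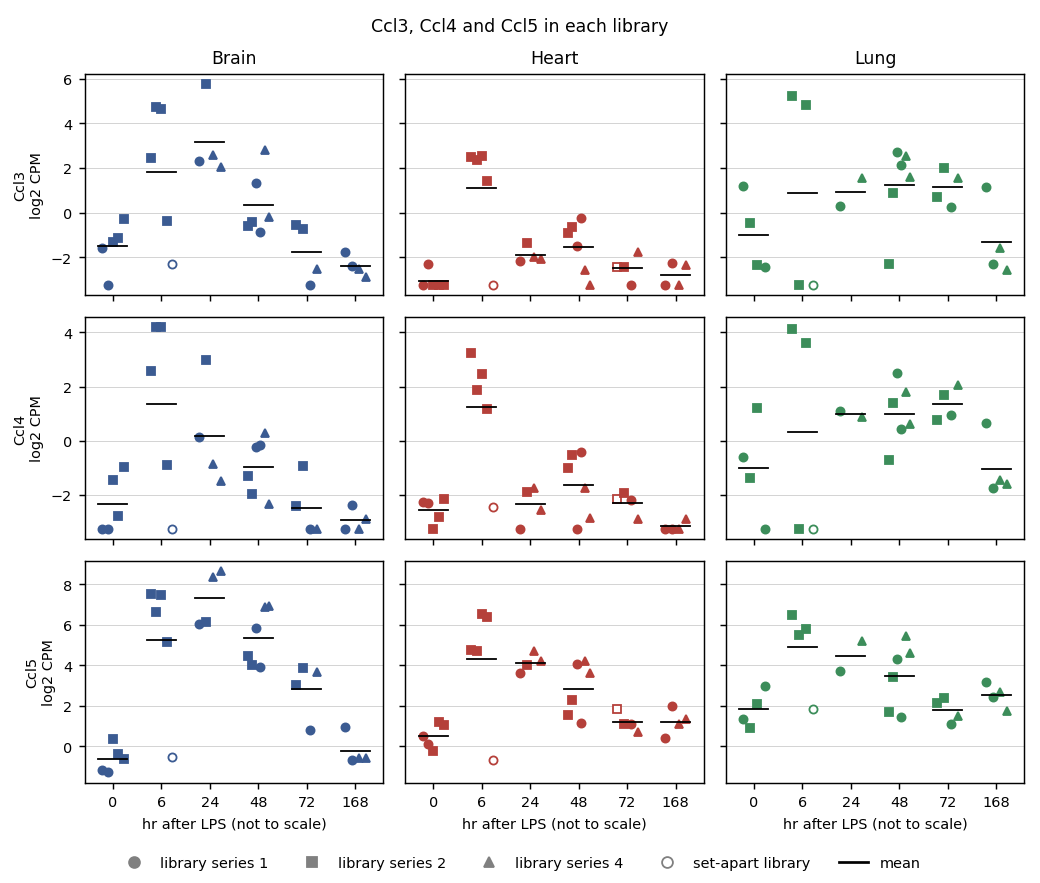
Level of Ccl3, Ccl4 and Ccl5 in each library as log2 CPM (prior count 2) against time after LPS, with marker shape for the library series, hollow markers for the set-apart libraries and a line at the group mean. Lung Ccl3 and Ccl4 at 6 hr stand in 2 pairs, with 37.7 and 27.9 CPM of Ccl3 in one and 0 in the other, while lung Ccl5 is at 44.4 to 89.2 CPM in 3 of the 4 libraries. The set-apart lung library, in the pair at 0, has a depth that allows up to 10.5 CPM at a count of 0.

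Cx3cl1 (fractalkine), a membrane-tethered ligand that holds Cx3cr1-bearing leukocytes and that neurons of the brain also make, was called higher in heart and in no comparison with 0 hr in brain or lung. Heart Cx3cl1 was at 48.9, 47, 42.2, 40.1 and 46.4 CPM at 0 hr and at 253, 274, 214 and 293 CPM at 6 hr, with 36.9 CPM in the set-apart library. The 24 hr libraries held 198, 128, 131 and 83.9 CPM and those at 48 hr 64.4 to 333 CPM (median 149). At 72 hr the values were 172, 192 and 184 CPM with 48.7 CPM in the set-apart library, and at 168 hr 47.8, 62.4, 49.8 and 57.1 CPM.

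The heart difference was 2.67 (SE 0.49, adjusted p = 0.00029) at 6 hr, 1.956 (SE 0.50, adjusted p = 0.0132) at 24 hr, 2.00 (SE 0.45, adjusted p = 0.0113) at 48 hr and 1.84 (SE 0.48, adjusted p = 0.11) at 72 hr. Without heart 24 hr replicate 1 the 24 hr call was lost (largest adjusted p 0.0509). Without the set-apart libraries the 72 hr difference was 2.16 (adjusted p = 8.09e-05), and within series 2 it was 1.35 (adjusted p = 0.655).

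Brain Cx3cl1 was at 180, 200, 337, 455 and 349 CPM at 0 hr and at 388, 285, 492 and 495 CPM at 6 hr, with 186 CPM in the set-apart library. The groups overlapped, and the difference was 0.17 (95% interval -0.21 to 0.55), with 0.27 within series 2. At 24 hr brain held 117, 331, 120 and 113 CPM, at 48 hr 101 to 366 CPM (median 164), and at 72 hr 375, 318, 216 and 100 CPM. The difference was -0.25 at 24 hr (95% interval -0.68 to 0.18), -0.25 at 48 hr (-0.63 to 0.12) and -0.23 at 72 hr (-0.63 to 0.17).

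Neuron and glia markers moved with the brain values of Cx3cl1. They summed to 6612 to 12017 CPM in the brain libraries of series 2 and to 1270 to 6206 CPM in those of series 1 and series 4. The high Cx3cl1 values of 331 CPM at 24 hr, 366 and 264 CPM at 48 hr and 375 and 318 CPM at 72 hr are all from series 2 libraries. How much of brain Cx3cl1 came from neurons was not tested.

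Lung Cx3cl1 was at 39.8, 57.7, 76.6 and 187 CPM at 0 hr and at 22.4, 26.6, 148 and 3.52 CPM at 6 hr, with a difference of 0.09 (95% interval -1.22 to 1.41). Endothelial markers in the same 6 hr libraries summed to 1938, 1984, 13700 and 394 CPM, and Cx3cl1 was highest in the library with the highest sum. At 24 hr the endothelial sums were 20175 and 20518 CPM, while Cx3cl1 spanned 60.6 to 164 CPM. At 48 hr the lung libraries ranged from 2.20 to 110 CPM (median 86.6), and the lowest, replicate 1, also had the lowest endothelial sum at that time (3876 CPM). The part of endothelial content in lung Cx3cl1 was not tested. The Cx3cl1 difference from 0 hr was -0.99 (95% interval -2.25 to 0.26) at 48 hr and -1.26 (95% interval -2.53 to 0.01) at 72 hr.

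Ackr1 (the Duffy antigen receptor), which marks venular endothelium, was called higher in all 3 tissues at 6, 24, 48 and 72 hr. Brain Ackr1 was at 18.8, 48.2, 69, 65.6 and 66.7 CPM at 0 hr and at 591, 456, 940 and 619 CPM at 6 hr, with 29.6 CPM in the set-apart library. It was at 2134, 1038, 1611 and 1333 CPM at 24 hr, from 247 to 3422 CPM (median 1906) at 48 hr, and at 604, 489, 1009 and 2789 CPM at 72 hr. At 168 hr the brain values were 107, 24, 24.3 and 43.6 CPM.

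The highest brain median of Ccl2 was at 6 hr and that of Ackr1 at 48 hr, but the 48 hr level of Ackr1 was not called different from 6 hr. The brain difference was 3.53 (SE 0.72, adjusted p = 0.00308) at 6 hr, 4.53 (SE 0.81, adjusted p = 0.00121) at 24 hr, 4.60 (SE 0.81, adjusted p = 0.000915) at 48 hr and 4.01 (SE 0.78, adjusted p = 0.00293) at 72 hr. At 48 hr the 2 series 2 libraries held 643 and 247 CPM and the others 1512 to 3422 CPM. The series 2 libraries at 6 hr held 456 to 940 CPM, so the higher 48 hr median came from the other series. Within series 2 the 48 hr difference was 2.57 (adjusted p = 0.00872) and within series 1 6.53 (adjusted p = 0.0412).

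Heart Ackr1 was at 0.613, 0.880, 0.867, 0.487 and 1.13 CPM at 0 hr and at 24.6, 46.9, 22.7 and 35.2 CPM at 6 hr, with 0.761 CPM in the set-apart library. It was at 61.4, 43.9, 64.4 and 52 CPM at 24 hr, from 24.7 to 90.5 CPM (median 43.7) at 48 hr, and at 29.2, 43.2 and 69.3 CPM at 72 hr with 0.892 CPM in the set-apart library. The 168 hr libraries held 2.46, 1.57, 1.25 and 1.51 CPM, all above the highest 0 hr library, with a difference of 0.55 that was not called (95% interval -1.30 to 2.4).

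The heart difference was 5.59 (SE 0.86, adjusted p = 5.1e-05) at 6 hr, 6.05 (SE 0.89, adjusted p = 0.000585) at 24 hr, 5.84 (SE 0.85, adjusted p = 0.000598) at 48 hr and 5.20 (SE 0.86, adjusted p = 0.0105) at 72 hr. The 72 hr call was lost without heart 0 hr replicate 1 or 4 or heart 72 hr replicate 2 (adjusted p up to 0.0924). Cadm3, the gene that overlaps Ackr1, was at 1.12 to 2.56 CPM in heart at 0 hr and 0.719 to 2.74 CPM at 6 hr, and reached 48.8 CPM at 48 hr and 29 CPM at 72 hr. In brain it was at 31.9 to 283 CPM over all times. Reads of the shared part cannot be told apart.

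Lung Ackr1 was at 0.818, 0.514, 0.161 and 2.04 CPM at 0 hr and at 8.59, 0, 20.1 and 3.52 CPM at 6 hr. The 24 hr libraries held 76 and 394 CPM, those at 48 hr 2.37 to 73.6 CPM (median 33.7) and those at 72 hr 5.41, 2.68, 11.7 and 30.2 CPM. Every lung library from 24 to 72 hr lay above the 0 hr range, and those at 6 hr overlapped it.

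The lung difference was 4.82 (SE 0.86, adjusted p = 0.00202) at 6 hr, 6.98 (SE 0.99, adjusted p = 0.000312) at 24 hr, 4.52 (SE 0.80, adjusted p = 0.00303) at 48 hr and 3.78 (SE 0.79, adjusted p = 0.0266) at 72 hr. Ackr1 was the only member called in lung after 6 hr. The 72 hr call was lost when any of 7 lung libraries was left out, the 4 at 0 hr and 72 hr replicates 1, 3 and 5 (adjusted p up to 0.183). Within series 2 the lung differences were 4.63 at 6 hr and 3.81 at 48 hr, with adjusted p of 0.604 and 0.771.

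**Figure D4:**
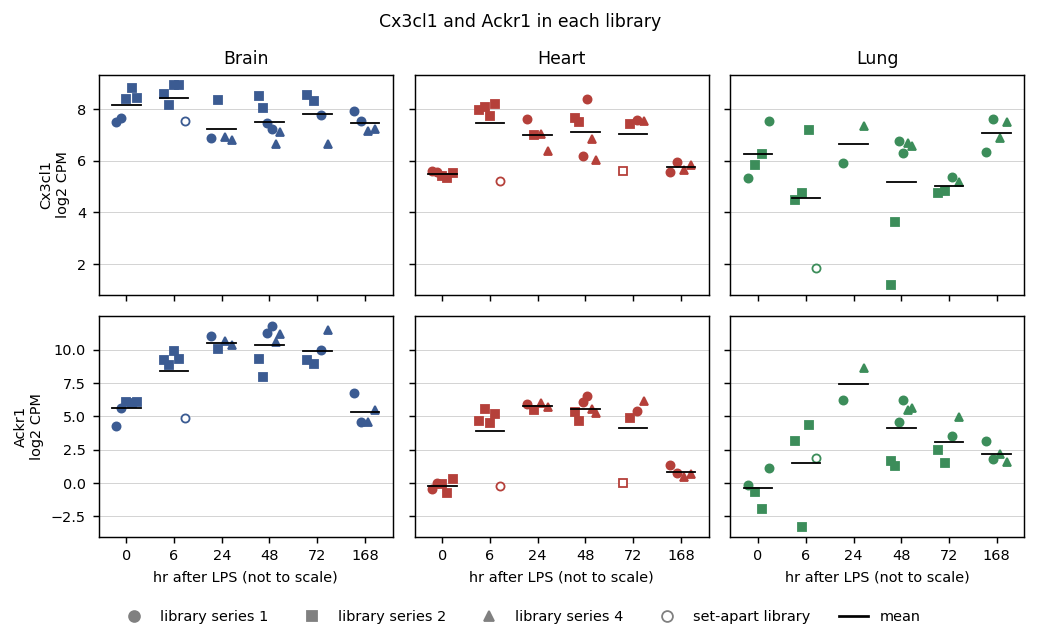
Level of Cx3cl1 and Ackr1 in each library as log2 CPM (prior count 2) against time after LPS in brain, heart and lung, with marker shape for the library series, hollow markers for the set-apart libraries and a line at the group mean. Ackr1 starts at 18.8 to 69 CPM in brain and 0.487 to 1.13 CPM in heart and stays raised through 72 hr in both, and heart Cx3cl1 goes from 40.1 to 48.9 CPM at 0 hr to 214 to 293 CPM in 4 of the 5 libraries at 6 hr.

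The decline after 6 hr was read by comparing 24 and 48 hr with 6 hr. In brain at 48 hr Ccl2 was lower by 4.92 on the log2 scale (SE 1.04, adjusted p = 0.00512), Ccl7 by 4.33 (SE 0.75, adjusted p = 0.00107) and Ccl11 by 4.55 (SE 1.02, adjusted p = 0.00751), and no other member was called (4.61% of all genes were called lower). At 24 hr 0 members were called lower than at 6 hr in brain (0.026% of all genes), and 3 were without the set-apart library (0.494%): Ccl2, Ccl7 and Ccl11. Without it the 48 hr count was again 3 (3.9% of all genes).

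Heart had 6 members lower at 48 hr than at 6 hr (17.4% of all genes): Ccl2, Ccl3, Ccl4, Ccl5, Ccl7 and Ccl11, with Ccl2 lower by 4.47 (SE 0.92, adjusted p = 0.00133). At 24 hr 1 member was lower (2.92% of all genes): Ccl4 fell by 4.32 (SE 1.08, adjusted p = 0.0248), and the call was lost without heart 24 hr replicate 1 or 2 or heart 6 hr replicate 1. Without the set-apart libraries 6 members were lower in heart at 24 hr (14.9% of all genes) and 7 at 48 hr (24.3%). Calls of Ccl5 and Ccl11 in heart at 48 hr were each lost in some single omissions, 5 and 4 of 28.

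Ackr1 at 48 hr differed from its 6 hr level by 1.08 in brain (95% interval -0.50 to 2.65), 0.25 in heart (-1.21 to 1.72) and -0.31 in lung (-1.74 to 1.13), with no call. In lung no member was lower at 24 hr (0% of all genes) or 48 hr (0.123%) than at 6 hr. In each of these 4 members had an unadjusted p under 0.05, and DESeq2 called 3 lower at 48 hr and none at 24 hr. Without the set-apart library the lung counts were also 0 (0% of all genes at 24 hr and 0.26% at 48 hr).

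Before LPS, per kilobase of exon, Cx3cl1 was the highest member in brain (median 85.9 CPM per kb, 45.7 to 116), heart (11.8, 10.2 to 12.4) and lung (17.1, 10.1 to 47.7). In brain Ackr1 followed at 46.7 CPM per kb (13.4 to 49.1), overlapping Cx3cl1, and no other member exceeded 3.94. Heart Ccl2 came next at 6.26 CPM per kb (5.25 to 8.67), below every Cx3cl1 value. In lung Ccl5, Ccl7 and Ccl2 had medians of 3.47, 1.99 and 1.74 CPM per kb with overlapping ranges.

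At 6 hr the order per kilobase was led by Ackr1 and Ccl2 in brain (medians 421 and 406 CPM per kb), with overlapping ranges. Heart Ccl2 stood far above the rest (2886 CPM per kb), followed by Ccl7 (276) and Cx3cl1 (64.4). In lung Ccl5 led at 52 CPM per kb, and the ranges of Ccl5, Ccl7, Ccl3 and Ccl2 overlapped.

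Levels at 0 hr were compared between tissues in a fit of all 3. Brain and heart differed in 4 members, beside 45.7% of all genes: Ackr1 was 6.06 higher in brain (SE 0.83, adjusted p = 5.01e-09), Cx3cl1 2.62 higher (SE 0.50, adjusted p = 9.97e-06) and Ccl3 4.18 higher (adjusted p = 0.0261), while Ccl2 was lower by 2.70 in brain (SE 0.90, adjusted p = 0.0101). The Ccl3 call compares 34 reads in brain with 1 in heart, and it was lost in 4 of 10 single omissions (brain 0 hr replicate 5 and heart 0 hr replicates 3, 4 and 5).

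Lung was higher than heart in 5 members (49.2% of all genes): Ccl3 by 5.68, Ccl4 by 4.00, Ccl7 by 2.43, Ccl5 by 2.02 and Cx3cl1 by 1.43. Only the Ccl3 call held in every single omission, but it compares 26 reads in lung with 1 in heart. The Ccl4 call compares 103 reads with 6, so the sizes of both differences are uncertain. Brain differed from lung in 5 members (55.6% of all genes). Ackr1 was 5.95 higher in brain (SE 0.94, adjusted p = 2.24e-07) and Cx3cl1 1.19 higher (adjusted p = 0.0447), and Ccl5 was lower by 3.31 (adjusted p = 0.000696), Ccl4 by 2.98 and Ccl2 by 2.48. The Ccl2 difference was -1.30 (adjusted p = 0.27) without lung 0 hr replicate 1, the Ccl4 call was lost without lung 0 hr replicate 3, and the Cx3cl1 call was lost in 6 of 9 omissions and without the 4 set-apart libraries (0.98, adjusted p = 0.0661). The shares of members called at baseline lie near those of all genes.

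Libraries of several tissues share the time and any number in their file names. This was read as the same mouse, which the labels do not state. The deviations of 74 such pairs from their group means correlated with a median r of 0.155 (51 pairs over 0.1). Among the 11 pairs at 0 hr the median r was 0.0796 (3 over 0.1). Libraries of the same mouse are also of the same library series, and taking off group means does not remove the series. These correlations therefore mix series and mouse, and the part of the mouse cannot be told from them. The fit of all 3 tissues holds the series as a covariate but not the mouse. With the mouse as a block under limma-voom, 2 members were called at 0 hr between brain and heart, 3 between brain and lung and 3 between lung and heart, the same counts as under limma-voom without the block.

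Whether the response differed between tissues was tested as the difference of the log2 changes from 0 hr. Under limma-voom, with or without the mouse as a block, 0 members differed in response between brain and heart or brain and lung at 6 or 48 hr, and 1 did between lung and heart at 6 hr (Cx3cl1, -2.31, adjusted p = 0.0299 with the block). The calls that follow are those of edgeR without the block. Between brain and heart at 6 hr 1 member differed (0.636% of all genes): Ccl11 rose by 5.13 more in brain (SE 1.30, adjusted p = 0.0367). The call was lost in 15 of 20 single omissions and was 5.17 (SE 1.19, adjusted p = 0.00303) without the set-apart libraries, where Cx3cl1 was also called (-2.22, SE 0.64, adjusted p = 0.0235, with 6.27% of all genes called). The difference for Ccl2 was -0.42 (95% interval -2.77 to 1.93).

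Lung and heart differed at 6 hr in 4 members (18.1% of all genes). Ccl2 rose by 5.03 less in lung than in heart (difference -5.03, SE 1.32, adjusted p = 0.00502), Ccl7 by 4.39 less (-4.39, SE 1.31, adjusted p = 0.0135) and Cx3cl1 by 2.71 less (-2.71, SE 0.74, adjusted p = 0.00693). The fourth, Ccl11, was 5.35 higher in lung (adjusted p = 0.0162), and without lung 6 hr replicate 1 it turned to -1.21. Its call was also lost without lung 0 hr replicate 3, and that of Ccl7 without lung 0 hr replicate 1 (adjusted p = 0.0658). The median gene differed by -0.37 in this comparison. Without the set-apart libraries 4 members were called (19.6% of all genes).

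Brain and lung differed at 6 hr in Ccl2 (13.3% of all genes), which rose by 4.61 more in brain (SE 1.33, adjusted p = 0.0147). With the mouse as a block under limma-voom the difference was 3.33 (SE 2.70, adjusted p = 0.367). Without lung 0 hr replicate 1 it was 3.35 (adjusted p = 0.0807), and the median gene differed by 0.40. Without the set-apart libraries Ccl5 joined it (3.17, SE 0.95, adjusted p = 0.0191, with 13.6% of all genes called).

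At 48 hr Cx3cl1 differed between brain and heart (-2.63, SE 0.65, adjusted p = 0.0341, with 0.463% of all genes called), lost in 10 of 22 omissions. Without the set-apart libraries it was -2.49 (adjusted p = 0.0166), and Ccl5 was called as 3.76 higher in brain (SE 0.82, adjusted p = 0.00816, with 0.69% of all genes called). Ccl5 rose by 4.43 more in brain than in lung at 48 hr (SE 1.06, adjusted p = 0.00835, with 3.54% of all genes called), and without the set-apart libraries by 4.41 (3.52% of all genes). Lung and heart differed in 0 members at 48 hr (1.13% of all genes). There 3 members, Ccl7, Ccl2 and Cx3cl1, had an unadjusted p under 0.05, the last with an adjusted p of 0.0562, which became 0.0288 without the set-apart libraries (1.34% of all genes), and DESeq2 called 1.

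**Figure D5:**
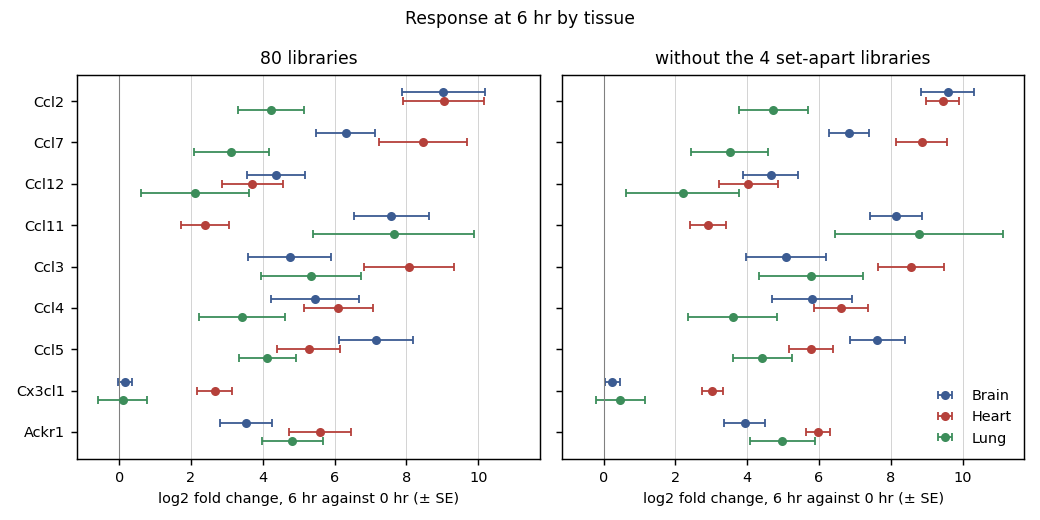
The log2 difference between 6 hr and 0 hr of the 9 tested members in brain, heart and lung, as points with bars of 1 SE either way, with all 80 libraries on the left and without the 4 set-apart libraries on the right. Ccl2 stands at 9.03 in brain, 9.04 in heart and 4.22 in lung, and Cx3cl1 at 0.17, 2.67 and 0.09.

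The other CC ligands and the chemokine receptors of the mouse give the surroundings of these members. Of 16 other CC ligands, 8 were tested in brain and 2 were higher at 6 hr, and of 15 receptors 3 of 11 tested were higher, beside 4.21% of all genes. Ccl9 (3.60, adjusted p = 0.000613), the lymph node homing receptor Ccr7 (3.33, adjusted p = 0.0292) and the chemerin-binding receptor Ccrl2 (2.91, adjusted p = 0.0101) had the largest changes there. Heart had 4 of 9 ligands higher and 1 lower, and 3 of 10 receptors higher, beside 22.4% of all genes higher and 20.3% lower. With the set-apart libraries left out it had 6 of 10 ligands higher and 1 lower, and 3 of 10 receptors higher and 3 lower, beside 27.8% and 30.2% of all genes. Ccl1 (6.5, adjusted p = 0.000229), Ccl22 (5.54, adjusted p = 2.25e-05) and Ccl17 (3.89, adjusted p = 0.0133) led there. Ccl22 and Ccl17 are ligands of Ccr4, a receptor on T cells. Heart medians at 0 hr were 0 CPM for Ccl1, 0.0375 for Ccl22 and 0.0807 for Ccl17. Their highest heart values were 4.42, 7.59 and 1.84 CPM. Brain Ccr7 had a 0 hr median of 0.0394 CPM and a highest value of 2.39 CPM. The sizes of these differences rest on few reads at 0 hr.

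Lung had 2 of 9 other ligands higher (2.56% of all genes) and 1 of 10 receptors lower (2.27%) at 6 hr. Ccl22 was at 14.7, 4.95, 2.51 and 2.05 CPM at 0 hr and at 40, 68.8, 91.3 and 0 CPM at 6 hr (3.74, adjusted p = 0.0287). The scavenging receptor Ackr4 was at 7.09, 0.794, 6.84 and 11.9 CPM at 0 hr and had no read in any of the 4 libraries at 6 hr (adjusted p = 0.0131). Ccl28 was called from 6 and 23 reads in replicates 1 and 3 at 6 hr, with none in the other libraries at 6 or 0 hr (adjusted p = 0.00974). The median over the ligands tested was 1.1 in brain, 1.34 in heart and 1.88 in lung, and over the receptors 0.39, 0.19 and 0.97. The receptors Ccr1, Ccr2 and Cx3cr1, which members bind, were not called in any tissue at 6 hr. In heart Cx3cr1 was called lower once the set-apart libraries were left out (-1.98, SE 0.83, adjusted p = 0.045).

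The genes most like each member over the 18 tissue and time means of log2 CPM were named by Pearson's r, as a description only. The means share libraries and depth, and tissue as well as time sets the pattern. Il6 (r = 0.929), Rnd1 (0.928) and Acod1 (0.906) were closest to Ccl2, and Cxcl2 (0.902), Cxcl3 (0.872) and Cxcl5 (0.859), neutrophil-attracting CXC ligands, to Ccl7. Bcl2a1b, Fcgr2b and Ms4a6d followed Ccl12 (0.861, 0.856 and 0.840), and Ptgs2, Fos and Gm32568 followed Ccl11 (0.910, 0.897 and 0.870).

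Ccl3 and Ccl4 were each other's closest gene (0.902), followed by Saa2 and Has1 for Ccl3 and Lif and Il1rn for Ccl4. For Ccl5 the list was Csf3 (0.900), Mmp3 (0.888) and Saa2 (0.888). Cx3cl1 was closest to Thbs4 (0.923), Dlgap4 (0.905) and Arl8a (0.897), and Ackr1 to Gm9768 (0.916), Serpine2 (0.906) and Gm12279 (0.905). Among the members themselves r was next highest for Ccl2 with Ccl7 (0.851) and lowest for Ccl4 with Cx3cl1 (-0.19).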

How the data were processed

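Ribosome-bound mRNA was pulled down by the HA tag from brain, heart and lung of RiboTagEC mice and sequenced on a HiSeq 4000. Per the labels and the study's methods, the authors aligned reads to mm10 with STAR 2.4.2 and deposited whole-number counts per gene from HTSeq 0.6.1, with 1 file per sequencing run. The annotation release and the strand setting are not given in the sources used here, and positions were taken from GENCODE M21. The 217 runs were summed into 98 libraries, and 18 libraries with under 3% of reads on genes were left out. Rows that name no gene were kept out of library sizes and tests: reads on no gene made up 2.35% to 47.3% of a library, ambiguous reads 0.0228% to 1.33% and reads aligned to several places 24.0% to 76.2%.

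Counts were tested with edgeR 4.0.16 (quasi-likelihood test, filterByExpr, TMM scaling, Benjamini-Hochberg adjustment over all genes tested, threshold 0.05). Each tissue had its own fit of all 6 times, and tissues were compared in 1 fit of all 3, each with the library series (the pattern of the count file names, which the labels do not describe as a batch) as a covariate. SE is the log2 difference divided by the square root of F, and a 95% interval is 1.96 SE either way. DESeq2 1.42.0, limma-voom (limma 3.58.1) and other scalings, filters, covariates and sets of libraries were alternatives. CPM values are per library total on genes without TMM factors, while tests use those factors, which for lung libraries ran as low as 0.2 in the lung fit and 0.122 in the fit of all 3 tissues. Counts cover reads, not molecules, so floors and counting intervals cover counting error only. The scripts were tested on simulated data first.

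All 10 members are described. Of the other CC ligands and receptors, the 3 with the largest change among those called at 6 hr in each tissue are named, as are the 3 genes most like each member. The members and lists were chosen with earlier results of these data known. The 4 set-apart libraries and the fits within a library series were picked after seeing the data. No 2 replicates agreed within sampling noise (smallest chi-square per degree of freedom 15.2).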

Additional observations from a re-analysis of the deposited data

Results flagged for a closer look

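Of 153 groups of 4 to 10 libraries looked at, 25 held a library far from the others by Dixon's ratio, where chance flags about 1 in 20 groups. The set-apart libraries account for 9 of these: brain 6 hr replicate 6 for Ackr1 (29.6 CPM) and Ccl11 (0.295 CPM), and heart 6 hr replicate 5 for Ackr1 (0.761 CPM), Ccl2 (5.18 CPM), Ccl3 (0 CPM), Ccl5 (0.533 CPM), Ccl7 (0.989 CPM) and Cx3cl1 (36.9 CPM), and heart 72 hr replicate 1 for Cx3cl1 (48.7 CPM).

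Brain 24 hr replicate 2 stood high for Ccl3 (55.1 CPM) and Cx3cl1 (331 CPM), and lung 6 hr replicate 1 stood high for Ccl11 (35.8 CPM). At 0 hr the libraries far from their group were brain replicate 1 for Ackr1 (18.8 CPM), heart replicate 2 for Ccl11 (1.08 CPM) and Ccl3 (0.0977 CPM), lung replicate 1 for Ccl11 (0.818 CPM) and lung replicate 3 for Ccl12 (0 CPM). At 48 and 72 hr they were heart 48 hr replicate 3 for Ccl11 (1.103 CPM), lung 48 hr replicate 1 for Ccl3 (0.100 CPM) and heart 72 hr replicate 5 for Ccl12 (0.154 CPM). The 168 hr group gave heart replicate 1 for Ccl12 (0.737 CPM) and Ccl7 (2.70 CPM), heart replicate 5 for Ccl4 (0.0303 CPM), lung replicate 1 for Ccl4 (1.47 CPM) and brain replicate 1 for Ccl5 (1.84 CPM). Several of these rest on few reads.

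The change from 0 hr differed between tissues for 8 member comparisons, by edgeR's test of the difference. Between brain and heart these were Ccl11 at 6 hr (5.13) and Cx3cl1 at 48 hr (-2.63). Between lung and heart at 6 hr they were Ccl11 (5.35), Cx3cl1 (-2.71), Ccl7 (-4.39) and Ccl2 (-5.03). Between brain and lung they were Ccl2 at 6 hr (4.61) and Ccl5 at 48 hr (4.43).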

How the results depend on the processing

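Of 87 member calls, 56 held whichever single library was left out. Calls held in 86 of 86 under DESeq2, 87 under RLE size factors, 87 without a filter on low counts, 80 without the library series covariate, 82 of 86 with all 98 libraries, 85 with libraries of at least 1000000 counts, 86 without the 4 set-apart libraries and 44 under limma-voom. With only the 2 groups compared 34 of 46 held, within series 2 49 of 63, within series 1 8 of 56, with a series term per tissue 6 of 8, and with the mouse as a block 9 of 22. The cause of each change below was not tested.

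Counts of members called changed as follows. Under limma-voom they went in brain from 8 to 5 at 24 hr, 5 to 2 at 48 hr, 3 to 1 at 72 hr and 3 to 0 for 48 against 6 hr, and in heart from 6 to 1 at 48 hr, 3 to 0 at 72 hr, 1 to 0 for 24 against 6 hr and 6 to 1 for 48 against 6 hr. At baseline it gave 2 for brain and heart, 3 for brain and lung and 3 for lung and heart, as did the mouse block. For the response both gave 0 for brain and heart and for brain and lung at 6 and 48 hr, and 1 for lung and heart at 6 hr. DESeq2 gave 8 in brain at 48 hr, 2 in lung at 48 hr, 3 for heart 24 against 6 hr, 3 for lung 48 against 6 hr, 2 for the brain and heart response at 6 and at 48 hr, and 1 for lung and heart at 48 hr. Without the filter there were 3 for brain 24 against 6 hr, 8 in brain at 48 hr, 5 at 72 hr, 5 for heart 24 against 6 hr, 1 for lung 48 against 6 hr, 4 for the brain and heart response at 6 and at 48 hr, 3 and 2 for brain and lung at 6 and 48 hr and 3 for lung and heart at 48 hr.

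RLE size factors gave 2 for heart 24 against 6 hr and 1 for the lung and heart response at 48 hr. Without the covariate there were 5 for heart 24 against 6 hr, 0 in lung at 72 hr and 0 for the brain and heart response at 6 hr. All 98 libraries gave 2 for heart 24 against 6 hr, 2 for the brain and lung response at 6 hr and 0 for brain and heart at 48 hr, which was also 0 with libraries of at least 1000000 counts. A series term per tissue gave 2 and 0 for the brain and heart response at 6 and 48 hr, 0 for brain and lung at 48 hr and 1 for lung and heart at 48 hr. Only the 2 groups compared gave 3 in brain at 6 hr, 5 at 72 hr, 0 in heart at 72 hr and 0 in lung at 6, 24 and 72 hr. Without the set-apart libraries there were 3 for brain 24 against 6 hr, 6 for heart 24 against 6 hr, 2 for the brain and heart response at 6 and at 48 hr, 2 for brain and lung at 6 hr and 1 for lung and heart at 48 hr.

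Within series 2 the counts were 2 in brain at 48 hr, 6 for brain 48 against 6 hr, 3 for heart 24 against 6 hr, and 0 in heart at 72 hr and in lung at 6, 48 and 72 hr. Within series 1 they were 2 in brain at 24 and 48 hr, 2 in heart at 24 hr, 1 in heart at 48 and 72 hr, and 0 in brain at 6 and 72 hr and for 48 against 6 hr, in heart at 6 hr and for 24 and 48 against 6 hr, and in lung at 6, 24, 48 and 72 hr. Signs turned within series 1, where the 6 hr library is a set-apart one. In brain the values were -0.21 for Ackr1, -0.74 for Ccl2 and -0.18 for Ccl3 at 6 hr, and 3.58 for Ccl11, 5.19 for Ccl2 and 1.58 for Ccl7 at 48 against 6 hr. In heart they were -3.16 for Ccl11, -0.82 for Ccl2, -1.08 for Ccl5 and -0.37 for Cx3cl1 at 6 hr, and 3.50 for Ccl11, 5.71 for Ccl2, 4.25 for Ccl5 and 5.22 for Ccl7 at 48 against 6 hr, and in lung -5.88 for Ccl3 at 6 hr. Ccl11 in the lung and heart response at 6 hr turned to -1.21 without lung 6 hr replicate 1, and ranged from -1.21 to 7.23 over single omissions.

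Replicate numbers did not pair libraries: the median correlation of deviations was 0.00105 over 151 pairs that share a number and tissue, with 49 over 0.1, and -0.0129 over 735 other pairs. With the replicate block 62 of 87 calls held. It gave 1 in brain and 0 in heart and lung at 72 hr, 0 in lung at 24 hr, 3 in heart at 48 hr, 2 for heart 24 against 6 hr, 3 at baseline for brain and lung and for lung and heart, and 0 for the brain and heart response at 48 hr.

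Leaving out 1 library at a time moved the counts in brain from 8 to 8 at 6 hr, 6 to 8 at 24 hr, 4 to 7 at 48 hr, 1 to 4 at 72 hr, 0 to 3 for 24 against 6 hr and 3 to 3 for 48 against 6 hr. In heart the ranges were 9 to 9, 4 to 7, 4 to 8 and 0 to 4 at 6, 24, 48 and 72 hr, 0 to 6 for 24 against 6 hr and 4 to 7 for 48 against 6 hr. In lung they were 2 to 6, 1 to 2, 1 to 1 and 0 to 1 at those times, 0 to 0 for 24 against 6 hr and 0 to 3 for 48 against 6 hr, and at 168 hr they were 0 to 0 in each tissue. Baseline ranges were 3 to 4 for brain and heart, 3 to 5 for brain and lung and 3 to 5 for lung and heart. The response at 6 hr ranged from 0 to 2 for brain and heart, 0 to 2 for brain and lung and 3 to 4 for lung and heart, and at 48 hr from 0 to 1, 1 to 1 and 0 to 1. Depth limits lung most, where 1 library had 284457 counts on genes.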
